A study of Mus musculus with 6 samples.

Results

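The genes described here are 8 enzymes of cholesterol synthesis that are targets of SREBP2, the transcription factor that cells activate when their membranes run short of sterol. In pathway order they are Hmgcs1, Idi1, Fdps, Fdft1, Sqle, Lss, Cyp51 and Nsdhl. They were taken as every probe set whose only symbol in the platform annotation was one of these names, which gave 13 of 12422 probe sets, and 11 of the 13 were bright enough to be tested. All 8 genes had at least 1 tested probe set. The arrays held total RNA of adrenal glands from male mice aged 12 weeks, with 3 arrays of the hypertensive strain BPH and 3 of the hypotensive strain BPL, both inbred from a selection for blood pressure. The question is how adrenal gene expression differs between a hypertensive and a hypotensive strain. No treatment, transgene or deletion is given for either strain, and no normotensive strain was analysed here, so a difference cannot be assigned to one of them. Whether each array held RNA of its own animal is not stated, and p-values rest on the spread among these arrays alone, which may be in part technical.

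Cholesterol is built from acetyl-CoA through mevalonate, the isoprenoids, squalene and lanosterol, and most enzymes of this route are controlled together. When sterol is scarce in the endoplasmic reticulum, SREBP2 is carried to the Golgi, cut free and taken to the nucleus, where it raises these genes and that of the LDL receptor. In the adrenal cortex cholesterol is the starting material of every steroid hormone, and it comes from lipoproteins, stored esters and this pathway.

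BPH adrenals had higher signals of Idi1 and Sqle than BPL adrenals, and the other 6 enzymes did not pass the test. Idi1, the isomerase that makes the allylic isoprenoid unit, differed by 1.78 ± 0.25 on the log2 scale (SE, n = 3 arrays per strain, limma with Benjamini-Hochberg adjustment, adjusted p = 0.0067), a 3.43-fold difference. Sqle, the squalene epoxidase and a rate-limiting step of the sterol branch, differed by 1.0 ± 0.20 (limma adjusted p = 0.029). On median-scaled signals, Cyp51 at 0.90, Hmgcs1 at 0.53 and Lss at 0.49 had every BPH array above every BPL array without passing. Fdps, Fdft1 and Nsdhl lay between 0.06 and 0.14 with overlapping groups. Of the 8 genes, 2 were called higher and 0 lower by limma. Over all 7453 tested probe sets, 3.18% were called higher and 0.926% lower. The higher calls made up 77.5% of the total, against 66.3% with the authors' scaling and 67.2% after quantile normalization. At an unadjusted p under 0.05 there were 4 of the 8, all higher, where 20.6% of all tested probe sets were under it in either direction and 14.2% were higher. All 8 differences were above 0, as were 60.5% of those of all tested probe sets. With the authors' scaling 7 of the 8 were, beside 46.9% of all, and after quantile normalization 5 of the 8, beside 49.98%. The median log2 difference of the 8 genes was 0.51, and that of all tested probe sets was 0.08.

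Promoter sequences show what 3 of these genes carry in front of their starts: Idi1, which passed the test, Hmgcs1, the only one of 4 with the searched sterol element, and Cyp51, the enzyme with the largest difference that did not pass. Promoters of 4 of the 8 genes were searched in the RefSeq table (build GRCm38.p6), the other being that of Lss, and those of Sqle, Fdps, Fdft1 and Nsdhl are not reported here. The 250 bases before the start site are given 5′ to 3′ on the strand of the gene. They lie at chr13:8885356-8885605 on the plus strand for Idi1, chr13:119690101-119690350 on the plus strand for Hmgcs1 and chr5:4104698-4104947 on the minus strand for Cyp51. Capitals mark, on either strand, TCACNCCAC (a form of the sterol regulatory element that SREBP binds), CCAAT (the core bound by NF-Y, read as ATTGG on the other strand) and GGGCGG (the core bound by Sp1, read as CCGCCC on the other strand).
Idi1: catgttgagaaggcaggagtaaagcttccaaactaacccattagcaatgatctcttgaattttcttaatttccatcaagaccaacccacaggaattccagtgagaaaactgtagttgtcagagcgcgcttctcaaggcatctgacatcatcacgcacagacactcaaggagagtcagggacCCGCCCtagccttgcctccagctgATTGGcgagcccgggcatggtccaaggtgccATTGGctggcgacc
Hmgcs1: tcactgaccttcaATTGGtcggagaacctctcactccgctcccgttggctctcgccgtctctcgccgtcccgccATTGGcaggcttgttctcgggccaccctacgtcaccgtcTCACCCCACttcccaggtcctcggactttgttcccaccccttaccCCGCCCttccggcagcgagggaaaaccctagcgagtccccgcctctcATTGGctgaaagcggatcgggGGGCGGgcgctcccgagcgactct
Cyp51: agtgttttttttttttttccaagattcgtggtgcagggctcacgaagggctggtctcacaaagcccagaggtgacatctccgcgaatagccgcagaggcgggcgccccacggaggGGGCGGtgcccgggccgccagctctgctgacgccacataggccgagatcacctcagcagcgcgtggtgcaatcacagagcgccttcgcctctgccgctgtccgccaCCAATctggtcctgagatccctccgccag
TCACNCCAC was found once, in Hmgcs1, starting 137 bases before the start site, where 1.05% of 32851 promoter windows of the same length held it. Its shorter core CACNCCA, which lies inside that match, occurred in no other of the 4 promoters and in 15.6% of all windows. CCAAT was present in all 4 promoters and in 33.9% of all windows, with 3 matches in Hmgcs1, 2 in Idi1 and 1 each in Cyp51 and Lss. GGGCGG was likewise in all 4 and in 32.7% of all windows. A match describes letters and is not a measured binding site. Other forms of the sterol regulatory element were not searched, so a promoter without a match may still hold one.

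The enzymes are taken in the order of the pathway from here, with signals after scaling each array to a common median. Hmgcs1 condenses acetyl-CoA units into HMG-CoA in the cytosol and opens the mevalonate pathway. Its signal was 12040, 10559 and 13351 in BPH replicates 1, 2 and 3, against 8011, 8431 and 8153 in the BPL replicates. The BPL arrays lay close together, their highest only 1.05 times the lowest, and the lowest BPH array was 1.25 times the highest BPL array. The log2 difference was 0.53 ± 0.15 (SE, 95% interval 0.18 to 0.88, limma adjusted p = 0.10) and did not pass.

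**Figure D1:**
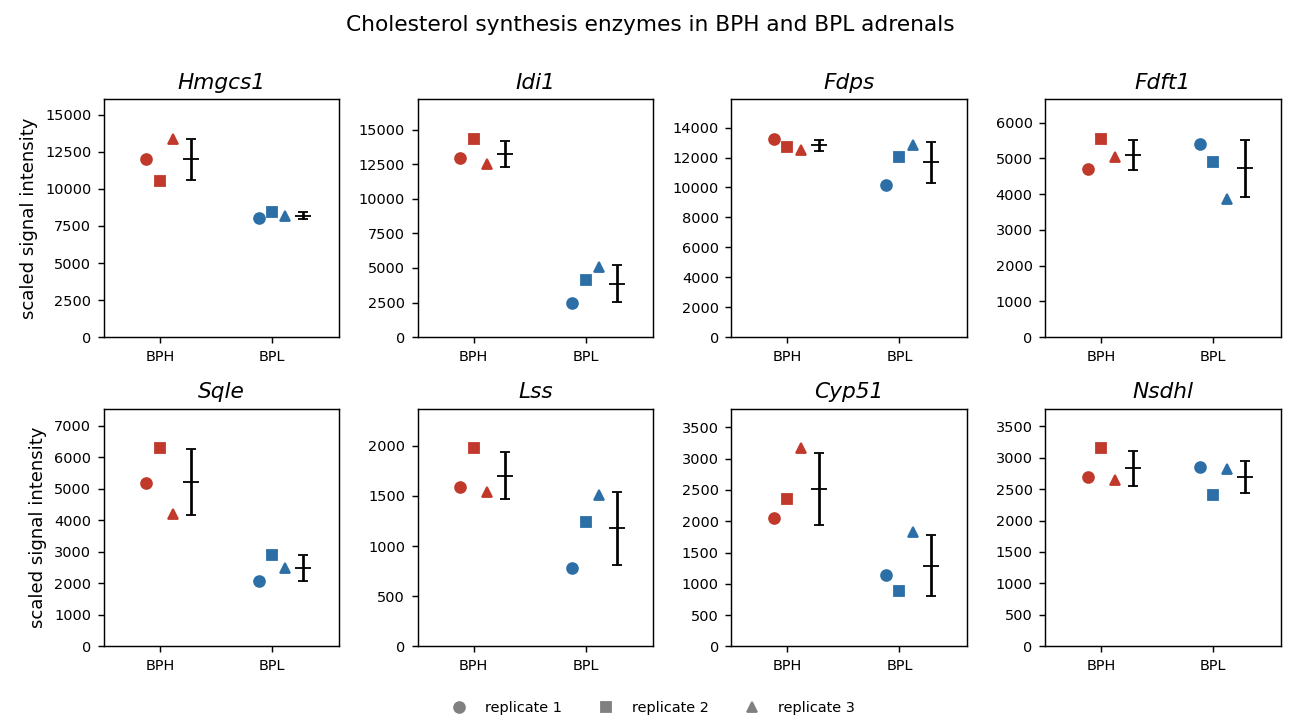
Scaled signal intensity (linear axis from 0) of the 8 enzymes in pathway order, 1 point per array with BPH left and BPL right, and the mean with SD (n = 3) beside the points. In Idi1 the 3 BPH arrays lie between 12500 and 14308 and the BPL arrays between 2435 and 5052, whereas in Nsdhl the strains overlap.

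Idi1 converts isopentenyl diphosphate into dimethylallyl diphosphate, the starter of every isoprenoid chain. Its signal was 12962, 14308 and 12500 in BPH replicates 1, 2 and 3, against 2435, 4147 and 5052 in the BPL replicates. All 3 BPH arrays were high and similar, the highest 1.14 times the lowest, whereas the BPL arrays spread over 2.07-fold. The lowest BPH array was still 2.47 times the highest BPL array. The 95% interval of the log2 difference ran from 1.21 to 2.34.

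Fdps builds farnesyl diphosphate, the branch point to sterols, ubiquinone, dolichol and prenylated proteins. Its brightest probe set had 13229, 12734 and 12478 in BPH replicates 1, 2 and 3, against 10141, 12064 and 12824 in the BPL replicates. BPL replicate 1 was the low array, BPL replicate 3 lay above BPH replicates 2 and 3, and the groups overlapped. The log2 difference was 0.14 ± 0.15 (SE, 95% interval -0.21 to 0.49, limma adjusted p = 0.64). A second tested probe set had 11803, 11112 and 10339 in BPH and 7050, 10043 and 9821 in BPL, and it missed the threshold at 0.31 ± 0.18 (SE, limma adjusted p = 0.35). Its name carries the suffix that Affymetrix gives to probe sets that can read several similar sequences. The other Fdps probe sets were dim, at 155 and 413 in BPH and 339 and 687 in BPL on average, and were not tested.

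Fdft1, squalene synthase, joins farnesyl units head to head and commits them to sterols. It had 4689, 5537 and 5044 in BPH replicates 1, 2 and 3, against 5411, 4903 and 3856 in the BPL replicates. The strains overlapped, and here BPL replicate 1 was the highest of its strain and BPL replicate 3 the lowest. The log2 difference was 0.11 ± 0.17 (SE, 95% interval -0.28 to 0.51, limma adjusted p = 0.75).

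Sqle adds the oxygen that lets squalene be closed into a ring. Its signal was 5188, 6288 and 4207 in BPH replicates 1, 2 and 3, against 2076, 2915 and 2495 in the BPL replicates. Every BPH array was above every BPL array, with the lowest BPH array at 1.44 times the highest BPL array, and the 95% interval of the log2 difference ran from 0.55 to 1.45. Leaving out single arrays ended its call in 5 of 6 fits. Its limma adjusted p was 0.096 without BPH replicate 1 and 0.12 without BPH replicate 2. It was 0.085 when BPL replicate 1 was left out, 0.053 when BPL replicate 2 was and 0.051 when BPL replicate 3 was, and the differences in these 5 fits stayed between 0.87 and 1.11. It remained called only without BPH replicate 3, at 1.14.

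Lss, lanosterol synthase, closes the oxidised squalene into the first sterol. It had 1592, 1972 and 1538 in BPH replicates 1, 2 and 3, against 784, 1238 and 1505 in the BPL replicates. The groups were separate by a narrow margin, the lowest BPH array being 1.02 times BPL replicate 3. Its log2 difference was 0.49 ± 0.22 (SE, 95% interval -0.012 to 1.0, limma adjusted p = 0.25).

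Cyp51 removes a methyl group from lanosterol and is the cytochrome P450 of the route. Its signal was 2054, 2347 and 3163 in BPH replicates 1, 2 and 3, against 1136, 892 and 1832 in the BPL replicates. BPL replicate 3 came close to the lowest BPH array, which was 1.12 times as bright, and both strains varied widely, by 1.54-fold in BPH and 2.05-fold in BPL. The log2 difference of 0.90 ± 0.26 (SE, 95% interval 0.32 to 1.48) did not pass (limma adjusted p = 0.0999). It passed without BPL replicate 3, at a log2 difference of 1.15 (limma adjusted p = 0.029).

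Nsdhl takes part in removing the later methyl groups, as a sterol dehydrogenase. Its brightest probe set had 2695, 3145 and 2637 in BPH replicates 1, 2 and 3, against 2854, 2404 and 2821 in the BPL replicates. The strains overlapped, and the log2 difference was 0.06 ± 0.16 (SE, 95% interval -0.29 to 0.42, limma adjusted p = 0.84). The other probe sets gave 0.12 ± 0.14 and -0.02 ± 0.18 (limma adjusted p = 0.65 and 0.95), so all 3 lay near 0. The first of those had all BPH arrays, at 2602 to 2747, above all BPL arrays, at 2322 to 2561, after scaling to the common median. With the authors' scaling its groups overlapped, at a log2 difference of 0.014.

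**Figure D2:**
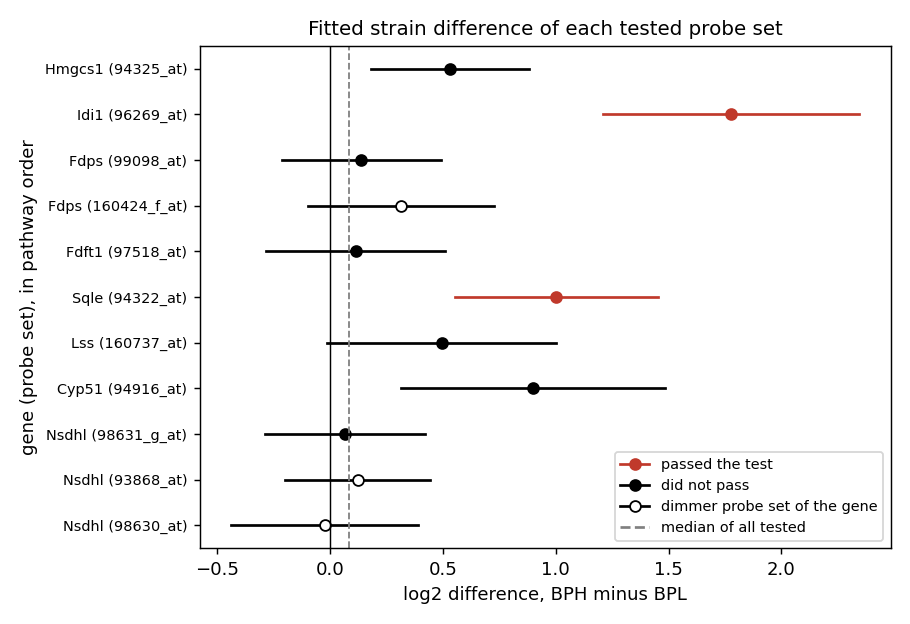
Fitted log2 difference (BPH minus BPL) of the 11 tested probe sets with 95% intervals from limma, in pathway order, and the median of all tested probe sets (0.08) as a dashed line. Idi1 at 1.78 and Sqle at 1.0 passed the test, and the intervals of Fdps, Fdft1, Lss and Nsdhl include 0.

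Among the 8 enzymes, 5 had groups that did not overlap after scaling to the common median, all with BPH above, and 3 overlapped. Of all 7453 tested probe sets, 19.7% had every BPH array above every BPL array and 7.97% the reverse. That scaling multiplied BPH replicate 1 by 1.10 and BPL replicate 3 by 0.98. With the authors' scaling Lss and Cyp51 overlapped too, since BPH replicate 1 was not above BPL replicate 3, and Hmgcs1, Idi1 and Sqle stayed separate. The 5 separated genes did not form 1 stretch of the route: Hmgcs1 and Idi1 stand early and Sqle, Lss and Cyp51 stand after squalene, with Fdps and Fdft1 between them. The gap at Fdps depends on the probe set, since the second one had separate groups, its lowest BPH array at 10339 and its highest BPL array at 10043. BPL replicate 1 was the lowest BPL array for 5 of the 8 genes and BPL replicate 3 for 1, and BPH replicate 2 was the highest BPH array for 5 of 8. Summed over the 8 genes, the signal was 54449, 56892 and 54919 in BPH replicates 1, 2 and 3, against 32848, 36996 and 38538 in the BPL replicates. Because the tissue was taken whole, a change in how many cells of a kind were present and a change in RNA per cell cannot be told apart.

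The samples held more than cortex, and that was uneven between the strains. All 9 cortex markers looked for were measured, Star and Cyp11a1 among them. Their summed signal ran from 700386 to 820590 in BPH and from 560741 to 730220 in BPL. By the brightest probe set only Mrap was called (higher). Nr5a1 was at 0.44 on its brightest probe set and not called. Of its dimmer ones, 1 was called higher at 1.24 (limma adjusted p = 0.023), and another was at 0.96 without passing (limma adjusted p = 0.089). Of 6 chromaffin cell markers, 2 were called higher (Th and Scg2), and the summed signal was 229150 to 298399 in BPH and 144389 to 226085 in BPL. Of 10 tested skeletal muscle markers, 7 were called lower in BPH. Their sum over 11 genes was 5268 to 6521 in BPH arrays, against 155138, 376140 and 27641 in BPL replicates 1, 2 and 3. Of the 6 fat markers 0 were called by limma, and their sum was 153311 to 230101 in BPH and 207095 to 227209 in BPL. The 2 with an unadjusted limma p under 0.05 were lower in BPH, Ucp1 at -0.84 and Cidea at -0.63. Of the 6 differences, 4 were below 0 and 2 above. The sums of 6 macrophage markers were 12751 to 15403 in BPH and 9973 to 11397 in BPL with 0 called by limma and 3 at an unadjusted p under 0.05. Liver and kidney markers were dim on most arrays, with 5 liver genes summing to 33885 in BPL replicate 2 and 9491 in BPH replicate 3 and to 1721 to 2690 elsewhere, and 7 kidney genes to 1593 to 5976. The stress-responsive genes Fos, Egr1, Junb and Hspa1a were all called higher in BPH, by 3.16 to 4.89 on the log2 scale. They were listed because earlier work on these same data reported them as different, so their calls are not an independent result. For the RNA control gene Gapdh, the 3′ probe set exceeded the 5′ one by 0.084 to 0.21 (log2) in BPH and by -0.033 to 0.057 in BPL. For Actb it did so by 0.94 to 1.25 in BPH and 0.79 to 0.90 in BPL. The part of medulla, muscle, fat, macrophages, the stress genes and these ratios in the enzyme differences was not tested.

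BPL replicate 3 had the least muscle signal of the BPL arrays, at 27641, which was still above the 5268 to 6521 of the BPH arrays. With it as the only BPL array and its spread assumed to be like that of BPH, Idi1 differed by 1.35 and Sqle by 0.99. In that fit Hmgcs1 stood at 0.54, Cyp51 at 0.40, Fdft1 at 0.38 and Lss at 0.15. A single BPL array gives no spread of its own, so these differences are given as sizes only.

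Set against the cortex markers of the same array, the differences of all 8 enzymes were shifted downward, and Idi1 and Sqle kept separate groups. For this, the mean log2 value of the 9 cortex markers was taken from each enzyme's log2 value within an array, a step chosen after the data were seen. It lowers every difference by the same 0.31, since the marker mean was 15.97 in BPH and 15.66 in BPL. That gap came mostly from Mrap at 0.92, Nr5a1 at 0.44 and Scarb1 at 0.43, the 3 markers with an unadjusted p under 0.05, and the median over the 9 markers was 0.17. Idi1 was then at -2.26 ± 0.06 in BPH and -3.72 ± 0.34 in BPL (SD, n = 3), a difference of 1.46. Sqle was at -3.58 ± 0.17 in BPH and -4.27 ± 0.15 in BPL (SD, n = 3), a difference of 0.69. Cyp51 had 0.59, Hmgcs1 0.22 and Lss 0.18 with overlapping groups. Fdps turned to -0.18 on its brightest probe set, with all BPH arrays below all BPL arrays. Its second tested probe set was at 0.00098 with overlapping groups. Fdft1 at -0.20 and Nsdhl at -0.25 overlapped, so the brightest probe sets of these 3 genes moved from above 0 to below it. With the median of the markers in each array as the reference, also chosen after the data were seen, the shift was 0.23. Idi1 then differed by 1.55 and Sqle by 0.77 with separate groups, and Fdps at -0.09, Fdft1 at -0.12 and Nsdhl at -0.17 all overlapped. The second Fdps probe set was at 0.08 with overlapping groups. These within-array values carry no test.

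**Figure D3:**
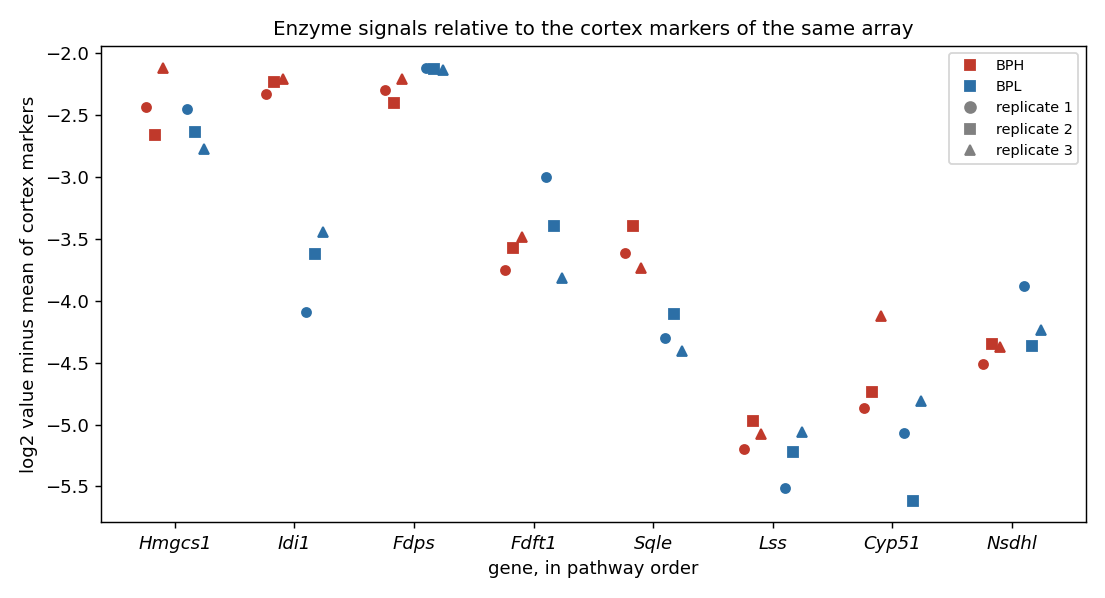
Log2 value of each enzyme minus the mean log2 value of 9 cortex markers of the same array, 1 point per array, BPH left of BPL within each gene. The BPH and BPL points of Idi1 and of Sqle do not overlap, at differences of 1.46 and 0.69.

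Of the 13 other enzymes of the pathway that were looked for, 9 were analysed here and 8 tested, and 0 were called by limma (2 at an unadjusted p under 0.05), with 6 differences above 0 and a median of 0.16. Those 2 were Msmo1, the sterol methyl oxidase that works beside Nsdhl, and Dhcr7, which makes cholesterol from its last precursor. Msmo1 had 8898, 8028 and 8533 in BPH replicates 1, 2 and 3, against 3432, 5483 and 6521 in the BPL replicates. Its groups were separate, and its difference of 0.75 ± 0.23 did not pass (SE, limma adjusted p = 0.12). The BPL arrays were in the same order as for Idi1, an order that the summed cortex, chromaffin and macrophage markers also had. Dhcr7 had 10297, 11358 and 7436 in BPH and 3952, 6161 and 7822 in BPL, which overlapped, at 0.71 ± 0.27 (SE, limma adjusted p = 0.19).

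Of the SREBP system itself little was measured. Srebf1, the gene of SREBP1, had 13378, 14760 and 13073 in BPH and 15738, 15672 and 14160 in BPL, at a log2 difference of -0.14 ± 0.15 (SE, limma adjusted p = 0.61). Insig1, which retains SREBP in the endoplasmic reticulum, was too dim to be tested on its probe set, with no array above 226. Mbtps1, the first protease that cuts SREBP, differed by 0.15 ± 0.16 and Erlin1, a protein of the endoplasmic reticulum membrane, by -0.49 ± 0.17 (limma adjusted p = 0.63 and 0.15). A dimmer Erlin1 probe set, not tested, went the other way, at 516 in BPH and 176 in BPL on average, with all BPH arrays above all BPL arrays. Over the 3 tested genes of this list, 0 were called by limma, and 1 (Erlin1) had an unadjusted p under 0.05. Among SREBP2 targets of uptake and transport, Npc1, which moves cholesterol out of lysosomes, had 11586, 12555 and 10762 in BPH and 5300, 8626 and 9625 in BPL. Its groups did not overlap, and its difference of 0.60 ± 0.23 did not pass (SE, limma adjusted p = 0.19). Npc2, its soluble partner, was at -0.01 ± 0.15 (limma adjusted p = 0.97). Of these 3 tested genes 0 were called by limma, and Npc1 had an unadjusted p under 0.05.

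The branches beside the sterol route gave no call either. Of 5 tested genes that use isoprenoids, 0 were called by limma and 2 had an unadjusted p under 0.05, with a median difference of 0.12. They were Rabggta at 0.64 ± 0.22 and Rabggtb at 0.41 ± 0.15, the subunits of the enzyme that attaches geranylgeranyl groups to Rab proteins (limma adjusted p = 0.15 and 0.19). Of 10 tested SREBP1 targets of fatty acid synthesis 0 were called by limma in the reported setting. An unadjusted p under 0.05 was seen for 6, of which 4 were lower in BPH and 2 higher. Over the 10, 4 differences were positive and 6 negative, with a median of -0.13. Fasn, the fatty acid synthase, had 52473, 45162 and 46559 in BPH replicates 1, 2 and 3, against 79583, 79960 and 68482 in the BPL replicates. All BPH arrays were below all BPL arrays, and the difference of -0.66 ± 0.15 missed the threshold (SE, limma adjusted p = 0.052). With the authors' scaling it was -0.77 and passed (limma adjusted p = 0.030). Elovl5, an elongase of polyunsaturated fatty acids, was at 0.53 ± 0.20 (limma adjusted p = 0.19). Of 6 tested genes of liver X receptors and sterol efflux, 0 were called by limma and 0 had an unadjusted p under 0.05. Their median was -0.02, with Cyp7b1, the oxysterol hydroxylase, at -0.46 ± 0.23 and Nr1h3, a liver X receptor, at -0.35 ± 0.21 (limma adjusted p = 0.29 and 0.38).

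**Figure D4:**
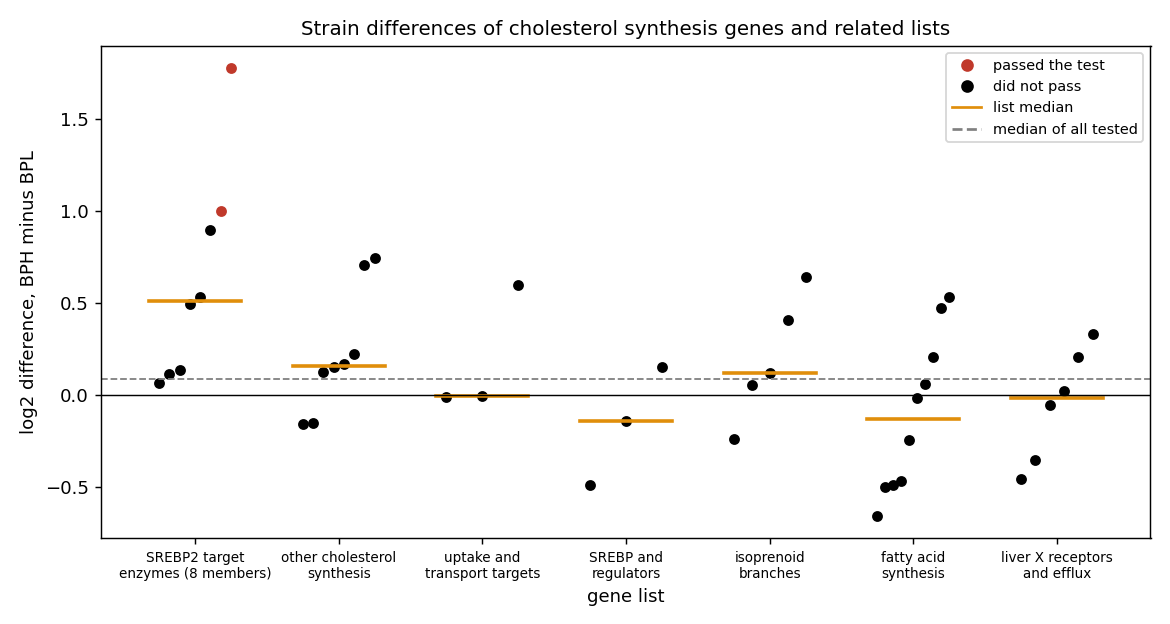
Fitted log2 difference (BPH minus BPL) of each tested gene, by list, with the median of the list as a bar and the median of all tested probe sets (0.08) as a dashed line. Of the genes shown, Idi1 and Sqle passed the test, and the median is 0.51 for the 8 members, 0.16 for the other cholesterol synthesis enzymes and -0.13 for fatty acid synthesis.

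Genes whose values over the 6 arrays were most like those of Idi1 were sought by the root mean square difference of log2 values, each centred on its own mean. The nearest was Lpgat1, an acyltransferase of phospholipids, at 0.084. It had 3937, 3895 and 3256 in BPH replicates 1, 2 and 3, against 637, 1150 and 1366 in the BPL replicates, and a log2 difference of 1.68. Next came Hoxb9 at 0.16, H2-D1 at 0.17 on a probe set that can read similar class I sequences, Bag3 at 0.18 and Procr at 0.19. For Sqle the nearest were Hnrnph3 at 0.089, Hspb8 at 0.095, Bgn at 0.12, Gadd45g at 0.12 and Zfp703 at 0.12. None of these 10 belongs to the sterol lists, and all are likened over the same 6 arrays, so that strain difference and array effects are shared.

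Under the 15 alternative settings the differences of single enzymes were of unequal stability. The alternative with BPL replicate 3 as the only BPL array enters the ranges by its sizes and is left out of the passes. In all the others Idi1 passed (limma adjusted p from 8.2e-04 to 0.038), and over all 15 its difference lay between 1.35 and 1.99. Sqle passed in 8, between 0.87 and 1.14. Cyp51 passed in 2, between 0.40 and 1.15. Hmgcs1 passed in 0 by limma, between 0.37 and 0.62, with a lowest adjusted p of 0.052. Lss passed in 0 of those in which it was tested, between 0.15 and 0.67. Fdps, Fdft1 and Nsdhl passed in 0 by limma and changed sign in 2, 2 and 5 of the 15.

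**Figure D5:**
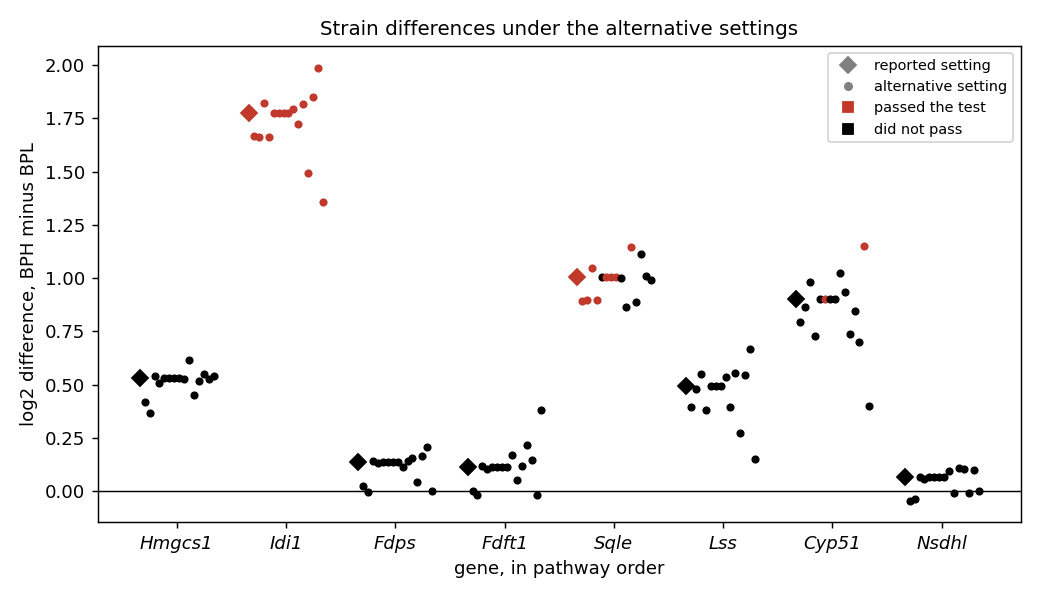
Log2 difference (BPH minus BPL) of the 8 enzymes in the reported setting (diamonds) and under the alternative settings (dots), from left to right in the order of the settings. Idi1 passed the test in all alternatives with several BPL arrays, Sqle in 8 and Cyp51 in 2, while Fdft1 ran from -0.020 to 0.38. The fit with BPL replicate 3 as the only BPL array is read for size only.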

How the data were processed

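Total RNA of whole adrenal glands was made into biotin-labelled cRNA for Affymetrix arrays, as the labels' protocols state. The values deposited by the authors are linear signal intensities, 1 for each probe set on each array, from MAS5 (per the submitters' processing notes). No source used here gives its version or settings. Means of the arrays, trimmed by 2% at both ends, were 2501 to 2502. Detection calls and a genome build for the probe sets were not used.

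Array medians differed by 21.0%, and signals were therefore scaled to a common median, 1040, the mean of the 6. Values were then taken as log2(signal + 203), where the pseudocount is the 20th percentile and understates changes of dim genes. The 66 control probe sets and the 40% with the lowest mean were left untested, leaving 7453. Limma 3.58.1 in R 4.3.3 (lmFit, eBayes) gave a moderated 2-sided test of BPH minus BPL, with 4 residual degrees of freedom and 4.50 from the prior. Benjamini-Hochberg adjustment ran over all 7453, with a threshold of 0.05. A gene with several probe sets was counted by its brightest. SE are from the model, SD over 3 arrays. The number of arrays limits the precision.

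The members, gene lists and tests were chosen with earlier results of these data known. Named genes were the 8 members, fixed SREBP genes, the called genes or the 2 largest differences of each list, and the 5 probe sets most like Idi1 and Sqle. Arrays shared at most 1 identical value in any pair and were each counted as a sample. Arrays of the same number in both strains had correlations of their deviations from the strain means of -0.06, -0.05 and -0.18. These values give no sign of pairing but cannot exclude it, and the labels do not state it. Promoters are from RefSeq on GRCm38.p6, those of 4 members are not reported here, and probe sets were named from the platform annotation.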

Additional observations from a re-analysis of the deposited data

How the results depend on the processing

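The alternatives were the authors' scaling, quantile normalization, pseudocounts at the 5th and 40th percentile (53.5 and 647), no filter, the lowest 60% not tested, a replicate block, a variance model that was trended and robust, leaving out single arrays, BPL replicates 1 and 2 left out together, and any probe set of a gene counting. Cortex markers as a within-array reference, by their mean or median, were added after the data were seen. The median difference of all tested probe sets was 0.08 as reported and -0.02 with the authors' scaling, a shift of about the size of the differences of Fdps, Fdft1 and Nsdhl, and 77.5% of calls were higher in BPH as reported, 66.3% with the authors' scaling and 67.2% after quantile normalization.

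Leaving out 1 array gave 92 to 279 probe sets called higher and 20 to 93 lower, against 237 and 69, and 1 or 2 of the 8 enzymes called higher. Without a filter 106 were called higher and 21 lower, and Idi1 was the 1 enzyme called. Without BPL replicates 1 and 2 together the counts were 73 and 19, with 1 enzyme called (Idi1) and an enzyme median of 0.39. Among the other listed genes 1 (Fasn) was called lower with the authors' scaling, after quantile normalization, with the higher pseudocount, with the stricter filter and with the trended variance. With the replicate block 172 probe sets were called higher and 67 lower, Idi1 and Sqle stayed called, and the block changed no call of the 8 enzymes. The labels link arrays across the 2 strains only by a replicate number.

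Reversals concerned differences near 0. After quantile normalization Fdps was at -0.0042, Fdft1 at -0.018 and Nsdhl at -0.038, and with the authors' scaling Nsdhl was at -0.045. Without BPL replicates 1 and 2 together Fdps and Nsdhl were at -0.0015 each and Mbtps1 at -0.058. Leaving out 1 array moved Fdft1 between -0.020 and 0.21, Nsdhl between -0.0098 and 0.11, its dimmest probe set between -0.16 and 0.092 and Npc2 between -0.089 and 0.035. The cause of these shifts was not tested.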
